A study of Mus musculus with 5 samples.

Results

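The 33 endothelial and lymphatic marker genes described here were taken from a fixed list of gene symbols. A probe set, the group of probes that the array reads as 1 signal, was used where the platform annotation gave it exactly 1 symbol. Every one of the 33 genes had a single such probe set, so 33 of the 22180 genes measured on 5 arrays are followed. By their usual roles the genes were split into 13 junction and surface markers, 7 receptors and ligands and 4 transcription factors of blood endothelium, 4 markers of venules and 5 markers of lymphatic endothelium. The 2 knockout arrays came from 4-week-old mice with an MMTV-Cre transgene and both Mmp14 alleles floxed, genotype MMTV-Cre+/Mmp14(f/f). The 3 wild-type arrays came from littermates with the same floxed alleles, Mmp14(f/f), and no Cre. All were on a congenic FVB/NJ background. The MMTV promoter drives Cre mainly in mammary epithelium, so endothelial cells are not the intended target of the deletion. RNA was taken from epithelial aggregates after collagenase digestion of lymph node-free inguinal glands and centrifugation steps meant to remove stroma. In such bulk RNA fewer endothelial cells cannot be told apart from less RNA per cell. The labels number the arrays as biological replicates without saying if an array held 1 mouse or several. The p-values therefore reflect only how far these 5 preparations vary.

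Blood vessels are lined by endothelial cells that are held together by VE-cadherin and PECAM1 and that respond to VEGF through the receptors encoded by Kdr and Flt1. The angiopoietin receptor TIE2 (Tek) and its partner TIE1 keep vessels quiescent, and ETS and SOX factors maintain endothelial gene expression. Postcapillary venules carry P-selectin, E-selectin and the atypical chemokine receptor ACKR1 for leukocyte entry, while lymphatic vessels are specified by PROX1 and signal through VEGFR3, the product of Flt4.

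The deposited values are log2 signals, and a difference of 1 unit is a doubling of signal. The median signal of an array was 4.24 to 4.29. Of the measured epithelial markers, 14 of 14 lay above the median gene, whose mean signal was 4.42. Krt8 read between 11.34 and 11.48 and Epcam between 9.98 and 10.10. The 12 measured fibroblast genes also lay above the median gene, with Dcn between 10.21 and 10.71. These levels show epithelial RNA but not how pure the preparations were. Mmp14 read 7.98 and 7.28 on the knockout arrays against 8.15, 8.67 and 7.75, so the groups overlapped for the targeted gene. Array numbers in the labels form 2 consecutive runs, with knockout 1, wild type 1 and wild type 2 in run 1 and wild type 3 and knockout 2 in run 2. What a run stands for is not stated. For Mmp14, knockout minus wild type was -0.43 within run 1 and -0.46 within run 2, each with 1 knockout array. Over all 5 arrays it was -0.56 ± 0.39 (limma's moderated SE), and Mmp14 was not called. Exact ties between arrays, to 6 decimals, occurred in 7 of the 33 markers and in 68.8% of all genes.

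None of the 33 markers passed the test between the genotypes. By limma's test 0 of 33 passed an adjusted p of 0.05, as did 0.00% of all genes, and the smallest adjusted p among the markers was 0.919. At an unadjusted p under 0.05 there was 1 marker, Ets1, against 1.30% of all genes. The median difference, knockout minus wild type, was -0.07 over the 33 markers and 0.00 over all genes, with 22 markers lower and 11 higher in the mean. What the markers did show was a wide gap between the 2 knockout arrays. Knockout 1 was the lowest of the 5 arrays for 24 of 33 markers, against 17.6% of all genes. Knockout 2 was the highest for 16 markers, against 21.4% of genes, and wild type 2 was the highest for another 16, against 15.4%. With each gene set to its wild-type mean, the 33 markers averaged -0.32 for knockout 1, 0.17 for knockout 2, and -0.08, 0.22 and -0.14 for wild type 1, 2 and 3. The wild-type arrays themselves spread over 0.36 units between wild type 2 and wild type 3. The median residual SD was 0.31 for the markers and 0.08 for all genes, and among genes with 5 different values it was 0.34 for 26 markers and 0.15 for 6930 genes. These are descriptions of the arrays, without a test.

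**Figure D1:**
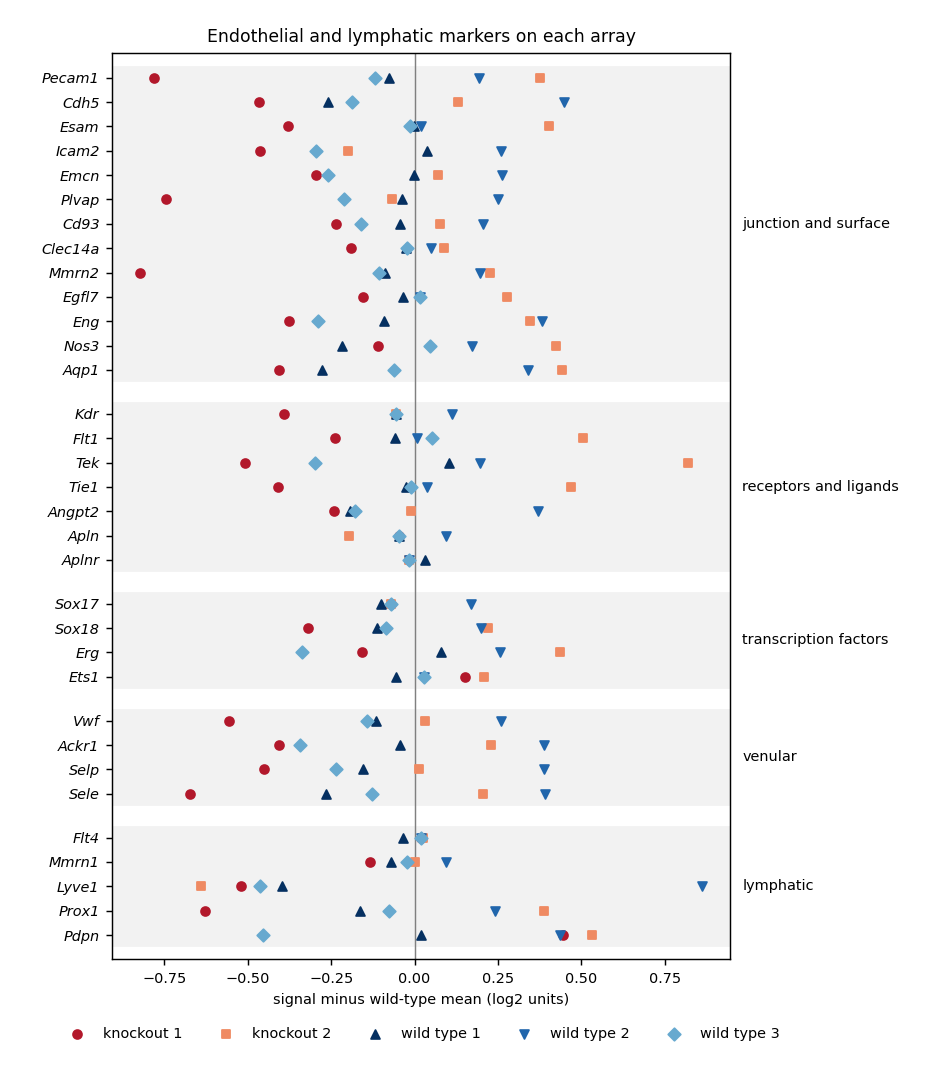
Signal of each of the 33 markers on each array minus the mean of the 3 wild-type arrays (x axis, log2 units), with genes on the y axis grouped by role; each symbol is 1 array. Knockout 1 is the lowest array for 24 of the 33 genes, and knockout 2 and wild type 2 are the highest for 16 genes each.

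Among the junction and surface markers of blood endothelium, knockout 1 was the lowest array for 12 of 13, against 17.6% of all genes. Pecam1, an adhesion molecule of endothelial junctions, read 7.64 in knockout 1 and 8.80 in knockout 2, against 8.35, 8.62 and 8.31 in wild type 1, 2 and 3. The knockout arrays lay on either side of all wild-type arrays, 1.16 units or 2.23-fold apart, and the genotype difference was -0.20 ± 0.40 (limma's moderated SE). Cdh5, which encodes VE-cadherin, read 8.23 and 8.83 in the knockout and 8.44, 9.15 and 8.51 in the wild type, so the groups overlapped. Its difference was -0.17 ± 0.33 (SE). Esam, a tight junction adhesion molecule, had nearly equal wild-type arrays at 5.33, 5.35 and 5.32. The knockout arrays read 4.95 and 5.74, so the 2 deviations were of like size and opposite sign, and the mean difference was 0.01 ± 0.26. Mmrn2, an endothelial matrix glycoprotein, followed Pecam1, with 6.43 and 7.48 against 7.16, 7.45 and 7.15 (difference -0.30 ± 0.37).

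Plvap, the diaphragm protein of fenestrated endothelium, and Icam2, a leukocyte ligand on endothelium, had the most negative differences of this group. Plvap read 5.89 and 6.57 against 6.60, 6.89 and 6.43 (difference -0.41 ± 0.27), and Icam2 read 6.05 and 6.32 against 6.56, 6.78 and 6.22 (difference -0.33 ± 0.21). In both, knockout 2 lay above wild type 3 and below the other wild-type arrays. Emcn, a sialomucin of capillaries and veins, read 8.04 and 8.40 against 8.33, 8.60 and 8.07. Cd93, a C-type lectin receptor, read 5.71 and 6.02 against 5.90, 6.15 and 5.78, and its relative Clec14a read 4.26 and 4.54 against 4.43, 4.50 and 4.43. For Emcn and Cd93 the order of arrays was the same, from knockout 1 through wild type 3, wild type 1 and knockout 2 up to wild type 2.

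Eng, encoding the TGF-beta co-receptor endoglin, read 6.65 and 7.38 against 6.94, 7.41 and 6.74, with knockout 2 and wild type 2 close together at the top (difference -0.02 ± 0.33). Egfl7, a secreted endothelial factor, read 5.69 and 6.12 against 5.81, 5.86 and 5.86. Aqp1, a water channel of capillary endothelium that other cell types also carry, read 6.47 and 7.32 against 6.60, 7.22 and 6.82. Nos3, the endothelial nitric oxide synthase, was the exception to the low rank of knockout 1, with 4.70 and 5.23 against 4.59, 4.98 and 4.85. Over the 13 genes the median difference was -0.08, and limma's adjusted p was 0.919 or higher for each.

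**Figure D2:**
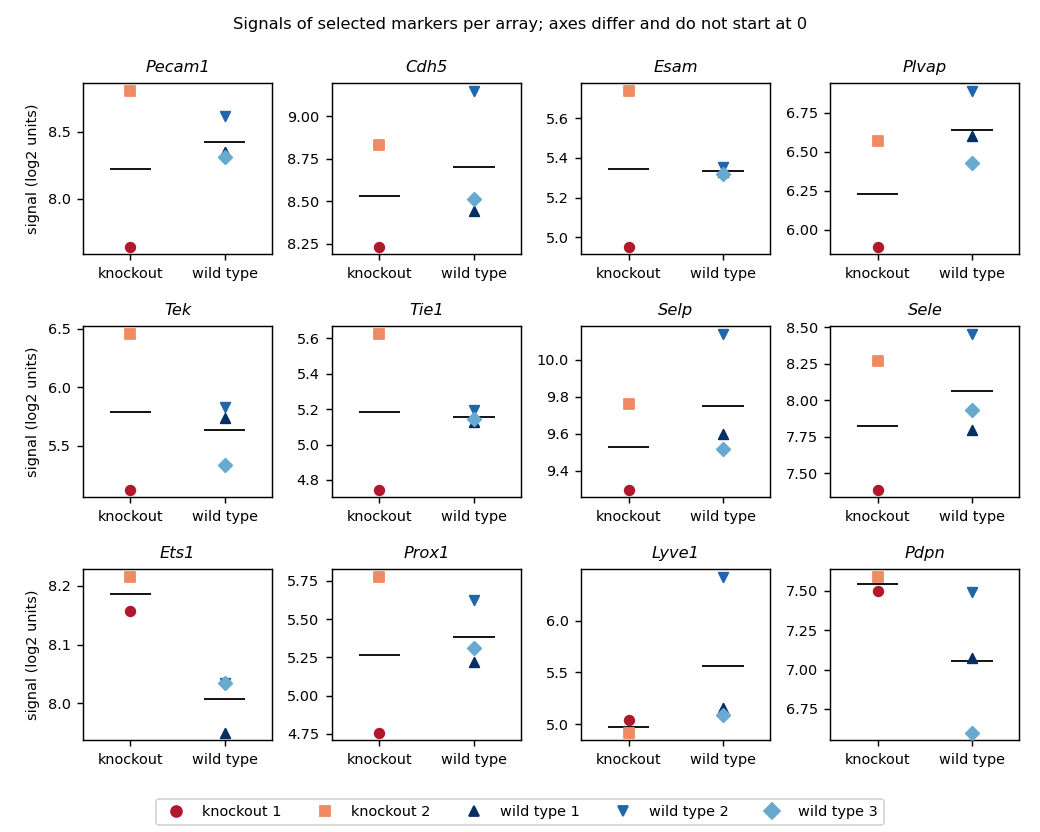
Log2 signal (y axis, scale set per gene and not starting at 0) of 12 markers on the 2 knockout and 3 wild-type arrays; symbols are arrays and horizontal lines are group means. For Pecam1, Esam, Tek, Tie1 and Prox1 the 2 knockout arrays enclose all wild-type arrays, while Ets1 and Pdpn lie above and Lyve1 below them on both knockout arrays.

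Of the 33 markers, the receptor gene Tek had the widest gap between the knockout arrays. Over the 7 receptors and ligands the median gap was 0.33, below the 0.60 of the junction and surface markers. Tek, which encodes the angiopoietin receptor TIE2, read 5.13 in knockout 1 and 6.45 in knockout 2, a 2.51-fold difference in signal, against 5.74, 5.83 and 5.34 in the wild type. Tie1 read 4.75 and 5.62 against 5.13, 5.19 and 5.15. The knockout arrays of both genes enclosed the wild-type arrays, and the genotype differences were 0.16 ± 0.48 for Tek and 0.03 ± 0.29 for Tie1. Flt1, the VEGF receptor that also acts as a decoy, read 6.71 and 7.45 against 6.89, 6.95 and 6.996 (difference 0.13 ± 0.25). Kdr, the main signalling receptor for VEGF, departed from Flt1 in that knockout 2 was not raised. Its signal was 4.87 in knockout 1, 5.21 in knockout 2, wild type 1 and wild type 3, which were tied, and 5.37 in wild type 2 (difference -0.22 ± 0.13).

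Of the ligands, Angpt2, an antagonist of TIE2 released by endothelial cells, read 6.58 and 6.81 against 6.63, 7.19 and 6.64, so wild type 2 stood above the other 4 arrays. Apln, the apelin ligand of tip cells, and its receptor gene Aplnr were dim, with all arrays below the median gene. Apln read 3.04 and 2.89 against 3.04, 3.18 and 3.04, with 3 arrays tied. Aplnr read 3.60 on both knockout arrays and 3.64, 3.60 and 3.60 in the wild type, with 4 arrays tied. These probe sets cannot be told from background, and they carry no sign of the order seen in the other receptors. The median difference over the 7 receptors and ligands was -0.02.

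The upstream sequence of the 2 TIE receptor genes is shown as that of a related pair. Their order of knockout 1, wild type and knockout 2 was not particular to them, since Pecam1 and Esam, among others, shared it. The 250 bases before the annotated start were read from RefSeq's GRCm38.p6, at chr4:94739039-94739288 on the plus strand for Tek and at chr4:118489850-118490099 on the minus strand for Tie1. They are printed 5′ to 3′ along the gene with the letters AGGAAG or their reverse complement CTTCCT, an ETS core, in capitals.
Tek: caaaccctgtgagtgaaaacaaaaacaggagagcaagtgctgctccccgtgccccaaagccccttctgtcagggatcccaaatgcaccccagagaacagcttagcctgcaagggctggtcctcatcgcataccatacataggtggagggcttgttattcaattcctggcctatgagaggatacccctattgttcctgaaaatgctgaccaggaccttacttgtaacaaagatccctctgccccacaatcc
Tie1: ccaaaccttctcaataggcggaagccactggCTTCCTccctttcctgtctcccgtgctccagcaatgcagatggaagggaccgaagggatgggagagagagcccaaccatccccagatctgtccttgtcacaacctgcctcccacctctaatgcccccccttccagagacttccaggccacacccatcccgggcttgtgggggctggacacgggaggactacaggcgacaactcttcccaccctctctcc

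Tie1 held this core at 1 place and Tek at 0. Of the 33 markers 18 had a window in the RefSeq table, and 10 of these 18 (55.6%) held AGGAAG or CTTCCT, against 29.5% of 32851 windows of the same length. On either strand, none of the 18 held the longer ETS core CCGGAAG, which was in 6.91% of windows. The SOX core ACAATGG, in 3.02% of windows, and the GATA core AGATAA, in 9.99%, were likewise in 0 of the 18. The 10 genes with AGGAAG were Ackr1, Apln, Aqp1, Egfl7, Emcn, Eng, Flt1, Sele, Selp and Tie1. A match of letters is a description and no evidence of binding. For markers with several annotated starts the window of the most upstream start was used. The 32851 windows were not reduced in this way and can hold several starts of a gene, so the shares are of unlike units.

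The transcription factors were less alike than the surface markers. Erg, an ETS factor of mature endothelium, read 6.22 and 6.81 against 6.45, 6.63 and 6.04, with wild type 3 rather than knockout 1 the lowest (difference 0.14 ± 0.28). Sox18, a factor of vascular and lymphatic development, read 3.46 and 4.00 against 3.67, 3.98 and 3.69 and was dim. Its relative Sox17, linked to arterial endothelium, was tied at 5.19 on both knockout arrays and wild type 3, with 5.16 and 5.43 on wild type 1 and 2.

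Ets1, an ETS factor also present in lymphocytes and stromal cells, was the marker closest to the test's threshold. It read 8.16 and 8.22 in the knockout and 7.95, 8.04 and 8.04 in the wild type, a mean of 8.19 ± 0.04 (SD, n = 2) against 8.01 ± 0.05 (SD, n = 3). Its groups did not overlap, and the difference was 0.18 ± 0.04 (SE), with an unadjusted p of 0.0126 and an adjusted p of 0.919 in limma's test. Wild type 2 and wild type 3 were tied to 6 decimals for this gene, which lowers the estimated spread. Ets1 was higher in the knockout by 0.16 within run 1 and by 0.18 within run 2. A knockout pair wholly above the wild type was found for 2 of the 33 markers, Ets1 and Pdpn, against 2.63% of all genes. A pair wholly below was found for 1 marker, Lyve1, against 2.80% of genes. Counts of 2 and 1 in 33 are near these background shares.

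All 4 venular markers were lowest in knockout 1 and highest in wild type 2. Selp, encoding P-selectin of endothelium and platelets, read 9.30 and 9.76 in the knockout and 9.60, 10.14 and 9.52 in the wild type (difference -0.22 ± 0.27). Sele, encoding E-selectin of activated endothelium, read 7.39 and 8.26 against 7.80, 8.45 and 7.93 (difference -0.23 ± 0.37). Knockout 2 ranked just below wild type 2 in both selectin genes. Ackr1, the chemokine-binding receptor of venules, read 7.28 and 7.92 against 7.65, 8.08 and 7.35 (difference -0.09 ± 0.33). Vwf, the clotting factor stored in endothelial granules and platelets, read 5.77 and 6.36 against 6.21, 6.58 and 6.18 (difference -0.26 ± 0.25). The median difference of the 4 genes was -0.23, the most negative of the 5 role groups, and none passed limma's test. That median hung on single arrays, being -0.03 without wild type 2 and 0.12 without knockout 1.

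Since Selp and Vwf are also platelet genes, the 5 measured platelet markers were read beside them, and they took different array orders. Pf4, a platelet chemokine, read 6.33 and 4.54 against 5.90, 5.90 and 4.98, highest in knockout 1. Gp9, a subunit of the platelet receptor for VWF, read 3.70 and 4.07 against 3.87 on each wild-type array, so knockout 1 was the lowest array, as for Selp and Vwf. Itgb3, an integrin chain of platelets and other cells, read 6.20 on both knockout arrays and 6.20, 6.36 and 6.06 in the wild type. Itga2b, the platelet integrin chain, was 4.14 on all 5 arrays, and Ppbp, another platelet chemokine, was between 3.29 and 3.35. The part of platelets in the Selp and Vwf signals was not tested. Genes of the high endothelial venules of lymph nodes were dim, with Madcam1 at 4.22, Chst4 between 3.22 and 3.39 and Fut7 between 3.49 and 3.54. The upstream windows of the 2 selectin genes, which lie near each other on chromosome 1 and gave the same extreme arrays, are shown in the same form. The window of Sele lies at chr1:164047984-164048233 and that of Selp at chr1:164115014-164115263 of GRCm38.p6 (RefSeq), both on the plus strand, and each holds the ETS core at 1 place.
Sele: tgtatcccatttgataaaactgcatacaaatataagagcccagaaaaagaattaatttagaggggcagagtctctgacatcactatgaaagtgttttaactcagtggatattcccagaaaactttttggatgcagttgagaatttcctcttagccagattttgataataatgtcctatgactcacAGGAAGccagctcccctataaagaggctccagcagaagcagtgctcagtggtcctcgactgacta
Selp: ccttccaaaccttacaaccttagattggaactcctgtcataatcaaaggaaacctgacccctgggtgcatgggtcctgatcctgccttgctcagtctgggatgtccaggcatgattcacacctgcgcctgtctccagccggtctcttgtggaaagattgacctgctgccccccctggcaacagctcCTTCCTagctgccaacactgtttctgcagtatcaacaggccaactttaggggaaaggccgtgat

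The lymphatic markers took different array orders. Prox1, the factor that specifies lymphatic endothelium, took the order of the blood markers, with 4.76 and 5.77 in the knockout and 5.22, 5.63 and 5.31 in the wild type (difference -0.12 ± 0.37). Lyve1, the hyaluronan receptor of lymphatic capillaries and of some macrophages, behaved otherwise. It read 5.04 and 4.92 in the knockout and 5.16, 6.42 and 5.09 in the wild type, so wild type 2 stood 1.26 units above wild type 1 and the remaining 4 arrays lay within 0.24 units. The difference of -0.58 ± 0.50 (SE) was the most negative of the 33; without wild type 2 it was -0.15 and without wild type 3 it was -0.81. Beside Lyve1, the macrophage gene Lyz2 read 7.09 and 7.03 against 7.86, 7.88 and 6.85. Its difference of -0.47 was the most negative of the 11 macrophage genes, whose median was only -0.09. Of these, 9 were lower and 2 higher in the knockout mean, while 51.6% of all genes were lower. The part of macrophages in the Lyve1 signal was not tested.

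Pdpn, encoding podoplanin of lymphatic endothelium, fibroblasts and myoepithelium, had the most positive difference, 0.49 ± 0.30 (SE; limma adjusted p = 0.919). Its signal was 7.50 and 7.59 in the knockout and 7.07, 7.49 and 6.60 in the wild type. The groups did not overlap, but wild type 2 lay within 0.01 units of knockout 1. The difference was 0.26 without wild type 3 and 0.71 without wild type 2. The replicate number as a block gave the same 0.26 and is no separate check. Only wild type 3 carries number 3, so it drops out of that estimate. Flt4, the VEGFC receptor gene, was dim, at 3.96 and 3.97 against 3.91, 3.96 and 3.96. Mmrn1, a granule protein of platelets and lymphatic endothelium, was dim as well, at 3.58 and 3.72 against 3.65, 3.81 and 3.69. The median difference over the 5 lymphatic markers was -0.07, and the median size of the gap between the knockout arrays was 0.12, compared with 0.61 over the 4 venular and 0.54 over the 24 blood markers.

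**Figure D3:**
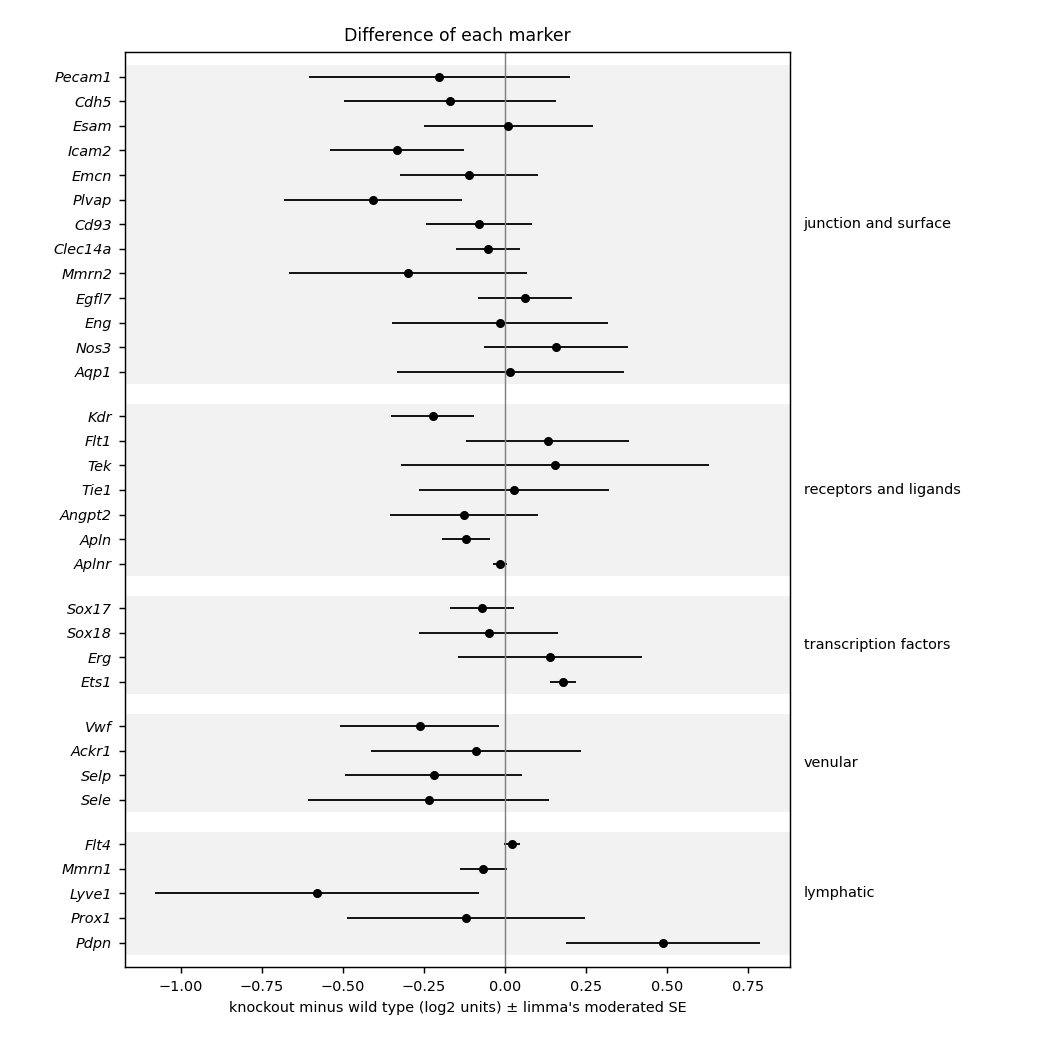
Knockout minus wild type for each marker (x axis, log2 units; points are differences of group means and bars are limma's moderated SE), with genes on the y axis grouped by role. Differences run from -0.58 for Lyve1 to 0.49 for Pdpn, and no gene passed limma's test over 22180 genes.

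The direction of the genotype difference was opposite in the 2 runs of array numbers. Within run 1, knockout 1 lay below the mean of wild type 1 and 2 for 30 of 33 markers, against 43.4% of all genes, with a median of -0.42. The lowest value was that of Mmrn2 (-0.88). Within run 2, knockout 2 lay above wild type 3 for 28 of 33, against 39.0% of genes, with a median of 0.31 and the highest value for Tek (1.12). Both held for 25 markers, against 18.9% of genes, or 24 of the 26 markers and 27.8% of the genes with 5 different values. The gap between the knockout arrays exceeded the range of the wild-type arrays for 18 of 33 markers, against 41.9% of genes. The contrast within run 2 rests on 1 array per genotype, and run 1 on a single knockout array.

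**Figure D4:**
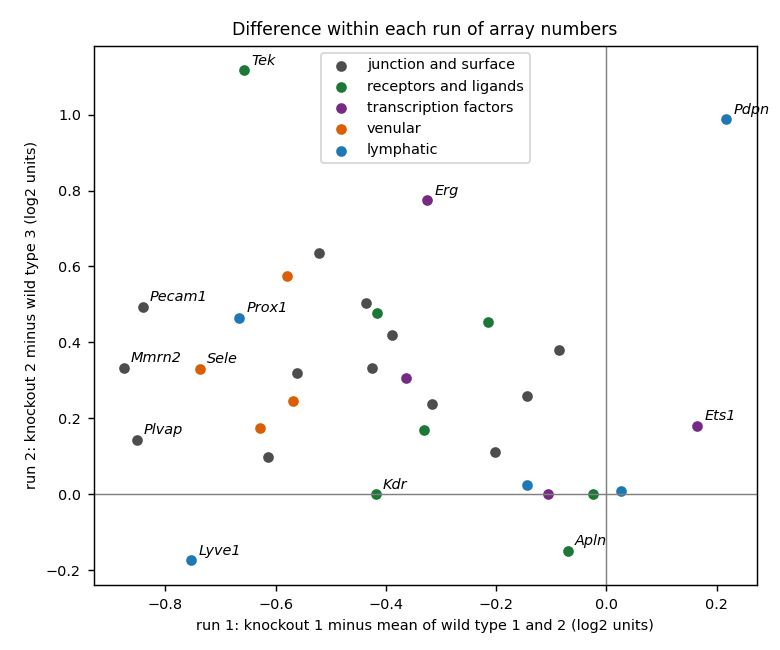
Difference within run 1 (x axis, knockout 1 minus the mean of wild type 1 and 2, log2 units) against difference within run 2 (y axis, knockout 2 minus wild type 3, log2 units) for the 33 markers, coloured by role. Of the points, 25 lie at the upper left, lower in run 1 and higher in run 2, and Ets1, Flt4 and Pdpn are higher in both.

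Leaving out either knockout array moved the result to the side of the other. Without knockout 1, 25 of 33 markers were higher in the remaining knockout array, with a median of 0.20. By limma's test, Esam (0.40 ± 0.02, SE; adjusted p = 0.0158) and Tie1 (0.47 ± 0.04, SE; adjusted p = 0.0341) passed, 2 of 33 beside 7.92% of all genes. Without knockout 2, 30 of 33 were lower, with a median of -0.38, and Esam alone passed (-0.38 ± 0.02, SE; adjusted p = 0.0298), 1 of 33 beside 3.76% of genes. Esam was therefore called in opposite directions by the 2 knockout arrays. The wild-type arrays of Esam spread over only 0.03 units, and a lone knockout array is assumed to vary like the wild type in these fits. Without wild type 2 the median over the 33 markers was 0.02, and 20 were higher in the knockout.

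Further endothelial genes outside the 33 showed the same arrays at the ends. Of 36 further markers 34 had a probe set, 0 passed limma's test (1 at an unadjusted p under 0.05), 15 had a higher and 19 a lower mean in the knockout, and the median difference was -0.01. They averaged -0.19 for knockout 1 and 0.19 for knockout 2 on the same scale. Knockout 1 was the lowest array for 19 of 34, against 17.6% of all genes. Gpihbp1, the lipase anchor of capillary endothelium, read 6.58 and 6.76 against 6.09, 6.46 and 6.25 (difference 0.40 ± 0.14, SE; limma unadjusted p = 0.0476 and adjusted p = 0.919). Sox7, a relative of Sox17 and Sox18, read 4.70 and 5.20 against 4.44, 4.87 and 4.54, while Fli1, an ETS factor, read 5.27 and 5.51 against 5.52, 5.76 and 5.52, and Efna1, an ephrin, read 6.50 and 6.35 against 6.35, 6.34 and 6.28.

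Ligands, co-receptors and modulators of the VEGF, angiopoietin, Notch, BMP and semaphorin pathways numbered 30, of which 0 passed limma's test (0 at an unadjusted p under 0.05). By group means 18 were higher and 12 lower in knockout glands (median 0.04). Knockout 1 was the lowest array for 8 of 30, against 17.6% of all genes, and knockout 2 the highest for 13, against 21.4%. Within run 1, 19 of 30 were lower in the knockout, against 43.4% of all genes, with a median of -0.08. Within run 2, 22 of 30 were higher, against 39.0%, with a median of 0.23. Plxnd1, the endothelial semaphorin receptor, was higher by 0.32 ± 0.15 (SE; limma adjusted p = 0.919), at 5.37 and 5.75 against 5.17, 5.37 and 5.17. Angpt1, the TIE2 agonist, read 4.19 and 4.37 against 4.19, 4.18 and 4.24. Vegfb stood at -0.04 ± 0.03 and Notch1 at -0.07 ± 0.05, both uncalled.

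Markers of other cells were read on the same arrays. The 12 pericyte genes, markers of the mural cells around capillaries, had the array order of the endothelial ones at both ends, at -0.21 in knockout 1 and 0.20 in knockout 2 relative to the wild-type mean, and at -0.12, 0.21 and -0.09 in wild type 1, 2 and 3. The 6 smooth muscle and myoepithelial genes were at -0.17 and 0.34 in the knockout and -0.28, 0.36 and -0.08 in the wild type. Of these, 5 of 6 were lower in run 1 and 5 of 6 higher in run 2, against 43.4% and 39.0% of all genes. The 14 epithelial genes went the other way, at 0.13 and -0.14 in the knockout arrays and between -0.05 and 0.03 in the wild type. Knockout 1 was the lowest array for 0 of the 14, against 17.6% of all genes. Their median gap (knockout 2 minus knockout 1) was only -0.16, and a few genes with wider gaps weighed on the list means. Fibroblast genes, 12 in number, were at 0.07 and 0.12 in the knockout and -0.07, 0.36 and -0.29 in the wild type, so they shared the high value of wild type 2 but not the low value of knockout 1. The 11 macrophage genes were at 0.01 and -0.25 in the knockout and 0.07, 0.19 and -0.26 in the wild type. Lymphocyte and lymph node genes, 11 measured, were at -0.26 and -0.19 against 0.23, 0.01 and -0.24. The 6 adipocyte genes ranged from -0.04 in knockout 1 to 0.17 in knockout 2, and the 5 platelet genes from -0.18 in knockout 2 to 0.11 in knockout 1. No gene of these lists passed limma's test, with 1 epithelial gene, Cldn4, at an unadjusted p under 0.05. The part of vessel, mural and epithelial cell content in the endothelial signals was not tested.

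**Figure D5:**
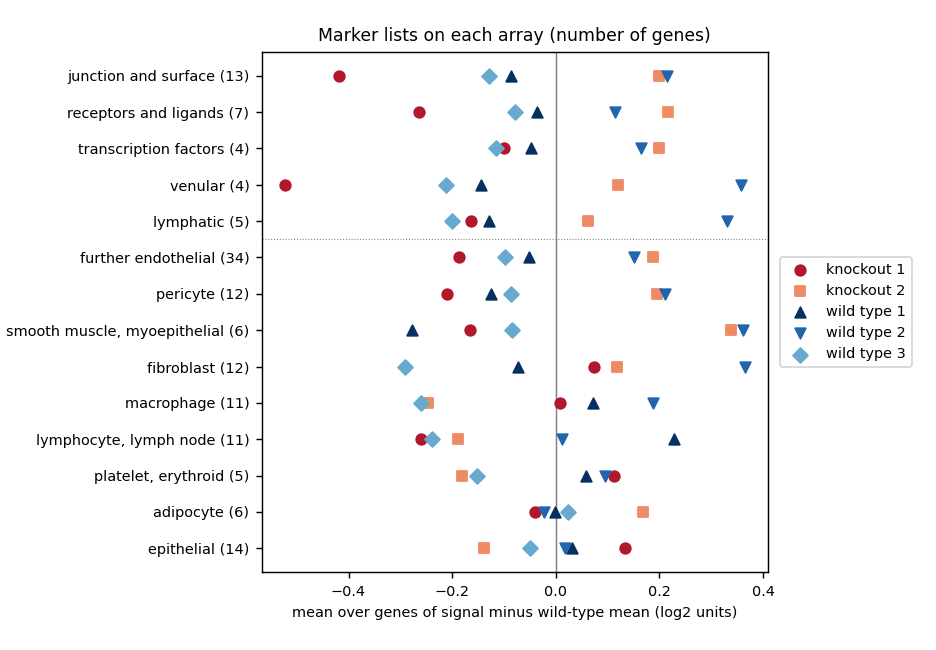
Mean over the genes of a list of the signal minus the wild-type mean (x axis, log2 units) on each array, with lists on the y axis and the number of measured genes in parentheses; each symbol is 1 array and the dotted line separates the 33 markers from other lists. Endothelial and pericyte lists have knockout 1 at or near the low end and knockout 2 and wild type 2 at the high end, and the epithelial list has the knockout arrays in the opposite order.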

How the data were processed

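Labelled cDNA of mammary epithelial cell preparations was hybridised to 5 Affymetrix arrays. Each probe set has a deposited value on the log2 scale. RMA and limma are listed, with no version, per the submitters' processing notes. The genome build behind the array was not given in the sources used here. Of 41345 probe sets, 23521 carry 1 gene symbol in the platform annotation; those with several (1814) or not listed (16010) were left out, and of several probe sets for a gene the brightest on average was used (22180 genes). There were no detection calls, so a dim gene may be background. Having 2 and 3 arrays limits the precision.

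Knockout and wild type were compared with limma 3.58.1 under R 4.3.3 (functions lmFit and eBayes, a two-sided test without covariates, Benjamini-Hochberg over all 22180 genes, threshold 0.05). The SE is limma's moderated SE. The fit was tried on simulated arrays that kept the genes' means, with the residual SDs shuffled among genes. There, 35.2% of genes changed by 0.5 units were called, and 65% of those changed by 1 unit. Recovery at the wider spread of the 33 markers was not simulated. The members, the gene lists and the rule for named genes (all 33 members, and up to 4 genes with the largest moderated t of other lists discussed) were chosen with earlier results of these data known; Mmp14, Krt8, Lyz2, Pf4, Itga2b, Ppbp, Epcam, Madcam1, Chst4 and Fut7 are given as checks, those outside that rule chosen after their values were seen. Within the 2 runs of array numbers differences were also computed separately, and alternatives are given in the closing section. Promoter windows are RefSeq's (GRCm38.p6), used for sequence only.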

Additional observations from a re-analysis of the deposited data

How the results depend on the processing

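With all 5 arrays kept, 0 genes and 0 of the 33 markers were called by limma under quantile normalisation, median centring, averaging of all probe sets per gene, a trend in the prior variance, array weights, a fixed or random block for the run, an adjusted p under 0.10, without genes under the 40th percentile of signal (29 markers left) and among genes with 5 different values, which was chosen after seeing the data; all 41345 probe sets also gave 0 genes, with 937 at an unadjusted p under 0.05. The median over the markers stayed between -0.08 and -0.06 in those settings. With the replicate number as a block, limma called 0 genes (817 at an unadjusted p under 0.05) and 0 markers (6 at an unadjusted p under 0.05). The median was -0.14. The numbers pair only 2 arrays of each group. Deviations from the group means correlated across genes at 0.245 for number 1, whose arrays share run 1, and at -0.0436 for number 2. Knockout 2 and wild type 3, which share run 2 but no number, correlated at 0.261. Since the deviations of the 2 knockout arrays mirror each other, these values cannot settle whether the numbers mark pairs. They were taken as shared numbers only. Under the replicate block Aqp1 (-0.014) and Erg (-0.028) changed sign, and under the fixed block for run Esam (-0.043), Aqp1 (-0.034) and Tie1 (-0.033) did. In each case the cause was not tested.

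Run 1 alone gave 0 called genes and markers, with medians of -0.42 over the 33 markers, -0.44 for junction and surface markers, -0.33 for receptors and ligands, -0.22 for transcription factors, -0.60 for venular and -0.14 for lymphatic markers, and sign changes for Esam (-0.39), Egfl7 (-0.15), Nos3 (-0.087), Aqp1 (-0.44), Flt1 (-0.21), Tek (-0.66), Tie1 (-0.42) and Erg (-0.33). Run 2 alone gave 0.31, 0.33, 0.17, 0.24, 0.29 and 0.02 for the same medians. Fewer arrays enter these values, and each rests on 1 knockout array.

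Leaving out 1 array gave 0 to 1757 called genes (1757 without knockout 1, 835 without knockout 2, 0 without any wild-type array) and 0 to 2 called markers. The ranges of the medians were -0.38 to 0.20 over the 33, -0.38 to 0.23 for junction and surface markers, -0.24 to 0.047 for receptors and ligands, -0.11 to 0.21 for transcription factors, -0.50 to 0.12 for venular markers and -0.13 to 0.026 for lymphatic markers. Single markers that changed sign ranged as follows. Pecam1 ran from -0.78 to 0.38, Cdh5 from -0.47 to 0.13, Esam from -0.38 to 0.40, Emcn from -0.30 to 0.071, Cd93 from -0.24 to 0.076, Clec14a from -0.19 to 0.088, Mmrn2 from -0.82 to 0.23, Egfl7 from -0.15 to 0.28, Eng from -0.38 to 0.35, Nos3 from -0.11 to 0.42 and Aqp1 from -0.41 to 0.44. Flt1 ran from -0.24 to 0.50, Tek from -0.51 to 0.82, Tie1 from -0.41 to 0.47, Angpt2 from -0.24 to 0.060, Sox17 from -0.12 to 0.014, Sox18 from -0.32 to 0.22 and Erg from -0.16 to 0.44. Vwf ran from -0.56 to 0.030, Ackr1 from -0.41 to 0.23, Selp from -0.45 to 0.012, Sele from -0.67 to 0.20, Mmrn1 from -0.13 to 0.00011 and Prox1 from -0.63 to 0.39. Some markers kept their sign, without a call, but moved in size. Ets1 ran from 0.15 to 0.21, Pdpn from 0.26 (without wild type 3) to 0.71 (without wild type 2) and Lyve1 from -0.81 (without wild type 3) to -0.15 (without wild type 2). Plvap ran from -0.75 to -0.069, Kdr from -0.39 to -0.056 and Apln from -0.047 (without knockout 2) to -0.20 (without knockout 1). The low end of Plvap and Kdr was without knockout 2 and the high end without knockout 1. Icam2 ran from -0.48 (without wild type 3) to -0.20 (without knockout 1).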
